A study of Mus musculus with 18 samples.

Results

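Muribaculaceae, a family of gut bacteria in the order Bacteroidales, made up 163 of the 419 sequence features in a 16S rRNA gene survey of mouse stool, and 11949 of its 43267 counts. A sequence feature is a distinct amplified sequence counted in each mouse, and the members are all features whose family name in the deposited taxonomy is Muribaculaceae. The stool came from 18 N2-generation mice bred by crossing the strains C57BL/6 and C3H/HeJ, and all of them had been sensitized to peanut for 6 weeks. By their labels, 6 of the mice were susceptible and 12 were resistant to oral anaphylaxis, an acute allergic response to an allergen that is swallowed. There was no unsensitized group, and the labels used give no age, sex, cage, litter or batch. P-values between the groups measure the spread between these mice.

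Muribaculaceae are strict anaerobes that are abundant in the gut of laboratory mice and break down plant and host polysaccharides. Many of their lineages have no cultured representative, and Muribaculum is among the few named genera. Closely related members can differ in the glycans they use, so the family name covers organisms with different diets. A genome can carry several copies of the 16S rRNA gene that differ in sequence, so a feature is not the same as a strain.

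The names could be checked only as far as the taxonomy goes, since the files used hold no feature sequences. The genus field repeated the family name for 161 members, and 2 members were named Muribaculum. In the species field, 95 members read uncultured bacterium, 28 uncultured Bacteroidales, 9 mouse gut and 8 unidentified, and 23 had no entry. Members are therefore written as F- followed by the first 6 characters of the deposited identifier. Libraries held 673 to 3905 counts (median 2534.5), and 2 of them held fewer than 1500. Members added up to 28 counts in resistant mouse 2 and 1864 in resistant mouse 9. A count of 0 allows a share of up to 3 counts, which is 0.0768% in the deepest library and 0.446% in the shallowest, for counting error only.

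The family's share of counts ranged widely in both groups. In susceptible mice it ran from 8.22% to 57.9% (median 31.2%), and in resistant mice from 0.844% to 69.3% (median 32.6%). The groups overlapped over most of this range. Within a mouse, 3 to 62 members were found (median 26.5).

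Most members were found in few mice, and few members held most of the counts. In a single mouse only, 88 members (54.0%) were found, and they held 3.90% of family counts. A further 34 members were found in 2 or 3 mice and held 8.26%. The 29 members in 4 to 8 mice held 30.9% and the 10 members in 9 to 17 mice held 39.4%. Only 2 members, F-5b0cc9 and F-610872, were found in all 18 mice, and they held 17.5% of family counts. The share of features in a single mouse was 53.0% of 132 in Lachnospiraceae, a family of spore-forming Clostridia, and 60.9% of 256 over all families other than Muribaculaceae.

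**Figure D1:**
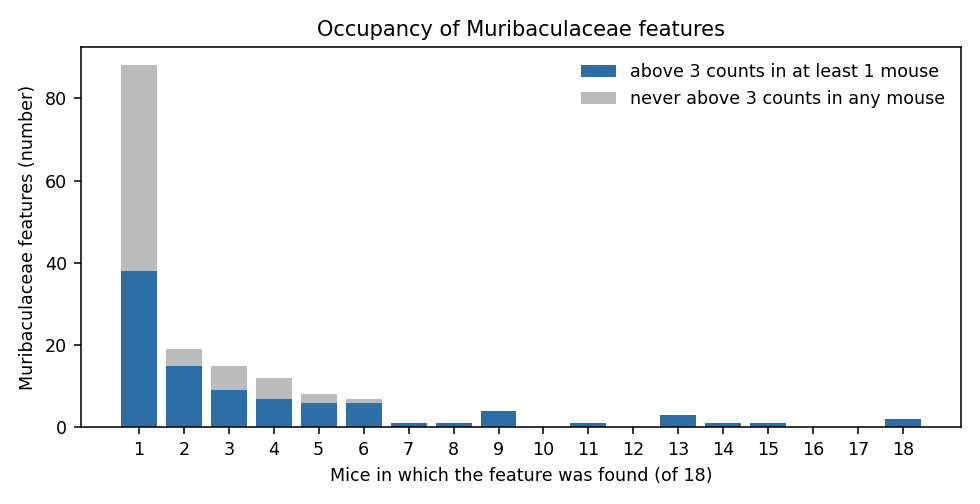
Number of Muribaculaceae features by the number of mice in which each was found (x axis). Bars separate features that stayed at very low counts in every mouse, as described in the text below, from the rest. The 88 features found in 1 mouse hold 3.90% of family counts, and the 2 found in 18 mice hold 17.5%.

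Features at very low counts weighed on these numbers. In no mouse did 68 of the 163 members (41.7%) exceed 3 counts, and 50 of these were found in a single mouse. Together they held 161 counts, or 1.35% of family counts. In Lachnospiraceae 23 of 132 features (17.4%) stayed at or below 3 counts, and over all other families 62 of 256 (24.2%). A count of exactly 1 occurred 85 times in Muribaculaceae, 2 times in Lachnospiraceae and 8 times over all other families. Without the 68 members, 38 of 95 (40%) were found in a single mouse, against 43.1% of the Lachnospiraceae features left by the same rule. What lies behind the single counts was not tested.

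Any 2 mice shared few members. The median pair had 7 members in common, with a range of 2 to 26 over 153 pairs. The Jaccard dissimilarity, the share of members of either mouse that is missing from the other, averaged 0.807 and ran from 0.556 to 0.968. It averaged 0.749 without the members that never exceeded 3 counts. Bray-Curtis dissimilarity of shares within the family, which weights members by abundance, averaged 0.635. In Lachnospiraceae the averages were 0.824 and 0.669. These are descriptions, since pairs share mice.

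The abundant members fell into widespread and patchy ones. By mean share of all counts over 18 mice, F-5b0cc9 (3.08%) and F-610872 (2.95%) stood first, followed by F-1e69bd at 2.64%, which was found in 15 mice. F-ab7f13 averaged 2.05% although it was found in 5 mice only. After these came F-a540c2 (1.64%, 9 mice), F-28dbab (1.55%, 8 mice) and F-f06ff2 (1.45%, 13 mice). F-4ebde8 (1.39%, 13 mice), F-17011c (1.24%, 13 mice) and F-5bb594 (1.19%, 14 mice) completed the 10 most abundant. By number of mice, F-a7c0cf (11 mice) and F-9490ca (9 mice) joined them. The named genus was minor: Muribaculum F-277c8d was found in 9 mice with 281 counts, and the other Muribaculum feature, F-35a871, in resistant mouse 10 only, with 16 counts.

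**Figure D2:**
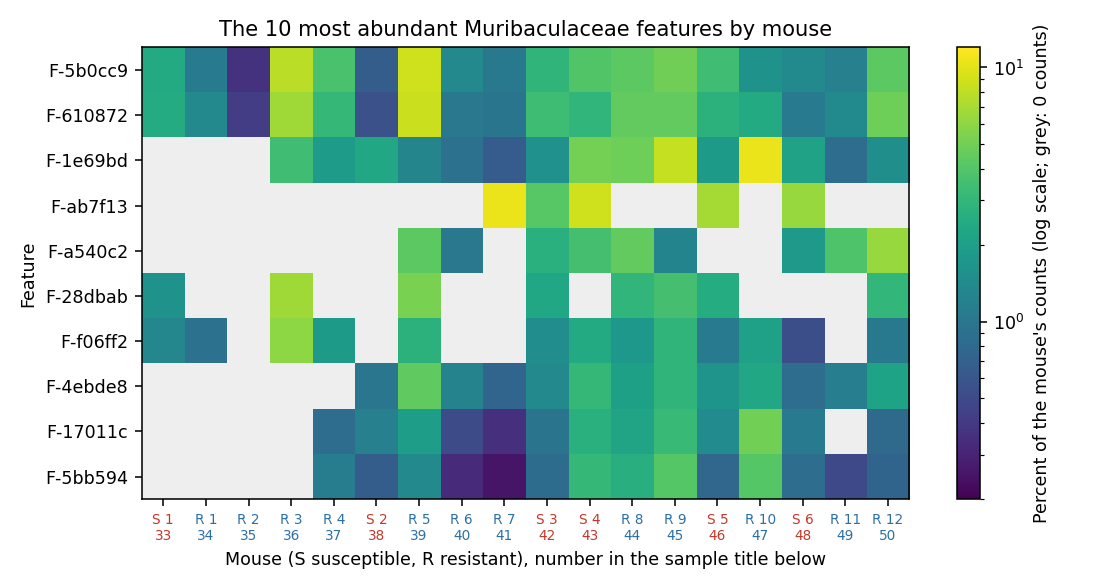
Percent of each mouse's counts (colour, log scale, grey for 0 counts) for the 10 Muribaculaceae features with the highest mean, with mice ordered by the number in the sample title and S or R marking the group. F-5b0cc9 and F-610872 are coloured in every mouse, whereas F-ab7f13 is coloured in 5 and F-1e69bd is grey in the 3 lowest-numbered mice.

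Which member led the family differed from mouse to mouse. F-ab7f13 led in 5 mice, F-5b0cc9 in 4, F-1e69bd in 4, F-610872 in 3 and F-a540c2 in 2. Over the 17 mice with at least 100 family counts, the leading member held 8.93% to 65.5% of family counts (median 16.99%). The highest value belonged to F-ab7f13 in resistant mouse 7, and the lowest to F-1e69bd in resistant mouse 8. The 3 leading members together held 25.5% to 78.0%. The family was thus led by a single member in resistant mouse 7 and spread over many in resistant mouse 8.

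The 2 members found in every mouse kept nearly the same ratio to each other. F-5b0cc9 ran from 0.666% to 3.97% of counts in susceptible mice (median 2.68%) and from 0.362% to 8.88% in resistant mice (median 2.66%). F-610872 ran from 0.555% to 3.37% (median 2.64%) and from 0.422% to 8.62% (median 2.75%). The groups overlapped for both. Across the 18 mice the share of F-5b0cc9 varied 24.6-fold, while the count ratio of F-5b0cc9 to F-610872 stayed between 0.660 and 1.35 (median 1.05). The SD of the log2 ratio was 0.29, and counting error alone gives 0.32. The chi-square of the ratios was 0.937 per degree of freedom. The ratio therefore varied no more than counts of this depth vary. Over the 18 mice the log2 shares of the pair had a Pearson r of 0.972. This r is a description, since both shares in a mouse have the same library total. Together the pair held 7.50% of family counts in resistant mouse 10 and 92.9% in resistant mouse 2, where 28 family counts were found.

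A second pair, F-a540c2 and F-9490ca, was found in exactly the same 9 mice. F-a540c2 ran from 1.03% to 6.41% of counts in those mice and F-9490ca from 0.667% to 3.19%. Their count ratio lay between 1.13 and 2.89 (median 1.80), with an SD of 0.41 on the log2 scale against 0.31 from counting error and a chi-square of 1.76 per degree of freedom. This ratio varied more than that of the pair found in all mice. Among 51 pairs of members that shared at least 9 mice, the SD of the log2 ratio had a median of 0.88, with a range of 0.29 to 1.54. The lowest belonged to F-5b0cc9 with F-610872. For 39 such pairs of features from other families the median was 1.46, with a range of 0.17 to 2.87.

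**Figure D3:**
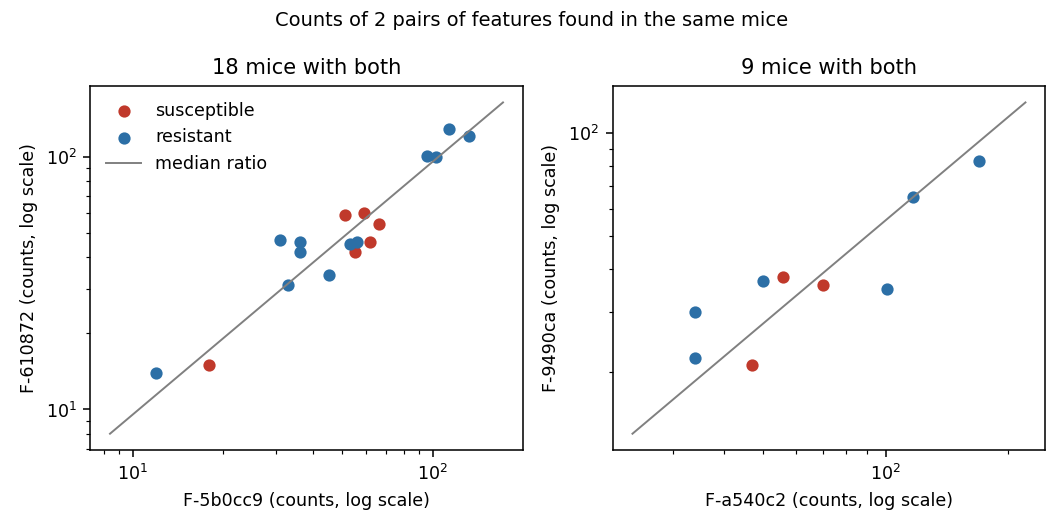
Counts of F-5b0cc9 against F-610872 in 18 mice, and of F-a540c2 against F-9490ca in the 9 mice that hold both, on log axes. Points are coloured by group, the grey line marks the median ratio, and counts are not scaled for library depth. The first pair keeps a count ratio between 0.660 and 1.35 and the second between 1.13 and 2.89.

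Members found in 4 to 14 mice tended to occur in the same mice. Presence was compared for 703 pairs of 38 such members with the phi coefficient, the correlation of 2 presence patterns across mice, which is 1 when 2 features are found in exactly the same mice. Phi was above 0 in 470 pairs (66.9%), with a median of 0.18, and at least 0.6 in 66 pairs (9.39%). For 1035 pairs of 46 features from other families, phi was above 0 in 55.1%, with a median of 0.06, and at least 0.6 in 2.71%. Pairs found in exactly the same mice numbered 9 (1.28%) in Muribaculaceae and 2 (0.193%) elsewhere. With presence taken from 2 counts, these were 4 of 378 pairs (1.06%) in Muribaculaceae and again 2 (0.193%) elsewhere. Phi was then above 0 in 76.5% of the Muribaculaceae pairs. Pairs never found together numbered 56 (7.97%) in Muribaculaceae, against 8.60% elsewhere. Mice differed in the number of members found, from 3 to 62, which by itself raises phi, and this was not adjusted for. The pairs share mice and features, so no test was made.

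The 9 pairs at phi 1 came from F-a540c2 with F-9490ca, a block of 4 members that gives 6 pairs, and 2 further pairs. The block, F-022bff, F-485590, F-b31949 and F-38b028, was found in resistant mice 8, 9 and 10 and in susceptible mouse 6, at 7 to 18, 5 to 14, 2 to 6 and 1 to 6 counts. F-6683fb and F-4d5bde, named after their values were seen, shared 4 mice at 1 to 3 counts. F-d1862f and F-25fe69 shared 6 mice, in which F-d1862f had 24 to 82 counts and F-25fe69 1 to 3. The count ratio of this pair had a median of 25. F-25fe69 thus appeared, at 1 to 3 counts, only where F-d1862f was found.

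The 5 pairs with the lowest phi all contained F-1a4174. F-1a4174 was found in susceptible mouse 1 and resistant mice 1, 3 and 4, at 6 to 13 counts, and in no other mouse. It never occurred with F-4ebde8 (phi -0.86), F-a7c0cf (-0.67) or F-a540c2 (-0.53), and it shared 1 mouse each with F-5bb594 (-0.68) and F-17011c (-0.56). The 4 mice with F-1a4174 carry the numbers 33, 34, 36 and 37 in their sample titles, which run from 33 to 50. What this number stands for is not given in the labels.

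Within-family richness rose with that number. Richness was taken as the members expected in 100 family counts, which compares mice at the same number of family counts. Resistant mouse 2 was left out because it had 28 family counts. Richness ran from 5 in resistant mouse 1, numbered 34, to 30.6 in resistant mouse 9, numbered 45 (median 19.4, n = 17). Those mice also had the fewest and the most family counts of the 17, at 153 and 1864. The relation of richness with the title number apart from family counts was not tested. Pearson's r with the number was 0.771 (permutation p = 0.00039, adjusted over 6 relations 0.00234) and Spearman's rho was 0.777 (permutation p = 0.00052, adjusted 0.00156). Leaving out the 2 mice whose numbers lay farthest from the median gave an r of 0.629 (permutation p = 0.0115). These p-values treat the mice as independent, and the labels give no cage or litter by which to check that. Richness above 20 was seen only in mice numbered 42 or higher.

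Without the low-numbered mice the relation did not pass the threshold. Among the 12 mice numbered 39 or higher, a limit chosen after seeing the data, Pearson's r came to 0.422 (permutation p = 0.175). With fewer mice and a shorter range of numbers, this value cannot tell a weaker relation from the same one. For the 11 resistant mice alone r was 0.731 (permutation p = 0.01) and rho was 0.736 (permutation p = 0.0124). Within the 6 susceptible mice r was 0.873 (exact permutation p = 0.025) and rho was 0.486 (exact permutation p = 0.356). The family's share had an r of 0.509 with the number (permutation p = 0.0312, adjusted 0.0624) and a rho of 0.536 (adjusted 0.0451), and library total had an r of 0.148 (adjusted permutation p = 0.556). Lachnospiraceae richness in 100 counts of that family had an r of 0.286 (adjusted permutation p = 0.376). Whether the relation differs between the families was not tested. An earlier account of these data gave the relation for all features, of which these members are a large portion, so it is no independent support.

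**Figure D4:**
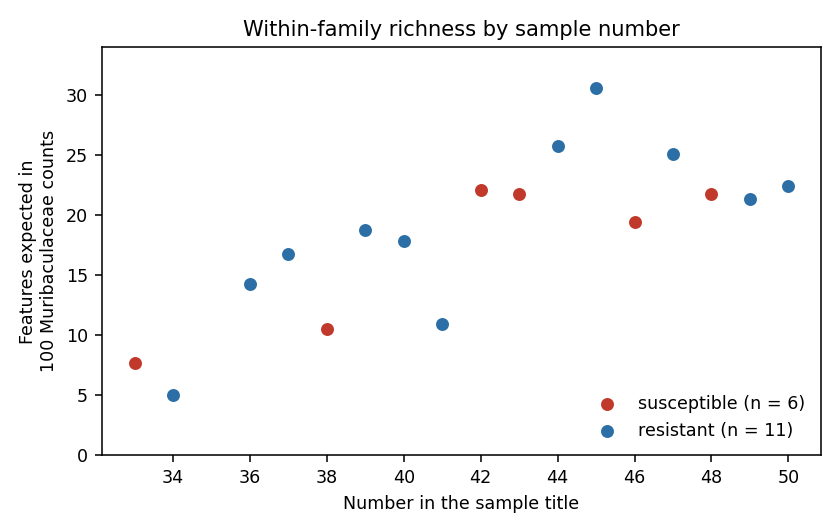
Members expected in 100 Muribaculaceae counts against the number in the sample title, 1 point per mouse (6 susceptible, 11 resistant). The lowest value is 5 at number 34 and the highest 30.6 at number 45, and from number 39 on the points show no relation past the threshold (r = 0.422).

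Turnover followed the number in the same way. Of the 41 members found in at least 4 mice, 35 were found in no mouse numbered under 36, and 21 in none numbered under 39. Both limits were chosen after seeing the data. Mice 33, 34 and 35 held only 8, 5 and 3 members in all, so most members had to be absent from them. The same count was not made for other families. Mean Jaccard dissimilarity was 0.730 for the 17 pairs of mice with adjacent numbers, 0.775 for a gap of 2 to 5, 0.826 for 6 to 11 and 0.906 for 12 or more. Lachnospiraceae dissimilarity rose over the same gaps, from 0.771 through 0.817 and 0.826 to 0.883. Among pairs of Muribaculaceae profiles with both mice numbered 39 or higher it was 0.731 for adjacent numbers and 0.745 for a gap of 6 to 11. Every pair with a gap of 12 or more includes a mouse numbered under 39, and the lowest-numbered mice held few members. Turnover apart from low richness was not tested. F-1e69bd was absent from mice 33 to 35 and F-4ebde8 from mice 33 to 37. Title numbers averaged 41.7 for the susceptible and 41.4 for the resistant group.

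Muribaculaceae and Lachnospiraceae did not differ in richness past the spread between mice. In the 17 mice with at least 100 counts of each family, 100 counts held 18.4 ± 6.81 Muribaculaceae features and 15.5 ± 5.29 Lachnospiraceae features (SD, n = 17). The mean difference was 2.84 features, and Muribaculaceae were higher in 11 of 17 mice (two-sided exact sign-flip permutation p = 0.227).

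The comparison of susceptible with resistant mice asks whether the family's share, richness, dominance or members differed with the response to oral anaphylaxis. None of these differed past the spread between mice. Susceptible mice had a mean family share of 29.2% ± 18.7 (SD, n = 6), and resistant mice of 32.9% ± 23.0 (SD, n = 12). On the scale of log2(percent + 0.01), susceptible minus resistant was 0.17, with a 95% interval of -1.55 to 1.94 (two-sided exact permutation p = 0.857). Richness in 100 family counts averaged 17.2 ± 6.42 members (SD, n = 6) in the susceptible group and 18.99 ± 7.24 members (SD, n = 11) in the resistant group. This difference was -1.75 members, with an interval of -9.30 to 5.81 (exact permutation p = 0.624). The leading member's share of family counts was 20.5% ± 6.30 and 21.2% ± 15.7, a difference of -0.746 percentage points with an interval of -14.7 to 11.9 (exact permutation p = 0.951). Without resistant mouse 7, where F-ab7f13 held 65.5% of family counts, this difference turned to 3.68 points (exact permutation p = 0.249). The richness difference was -4.85 members in 200 family counts (exact permutation p = 0.235) and -0.462 over members found in 2 or more mice (exact permutation p = 0.886). Adjusted over the 3 comparisons, each exact permutation p was 0.951. These intervals leave room for differences of many features or several-fold in share.

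**Figure D5:**
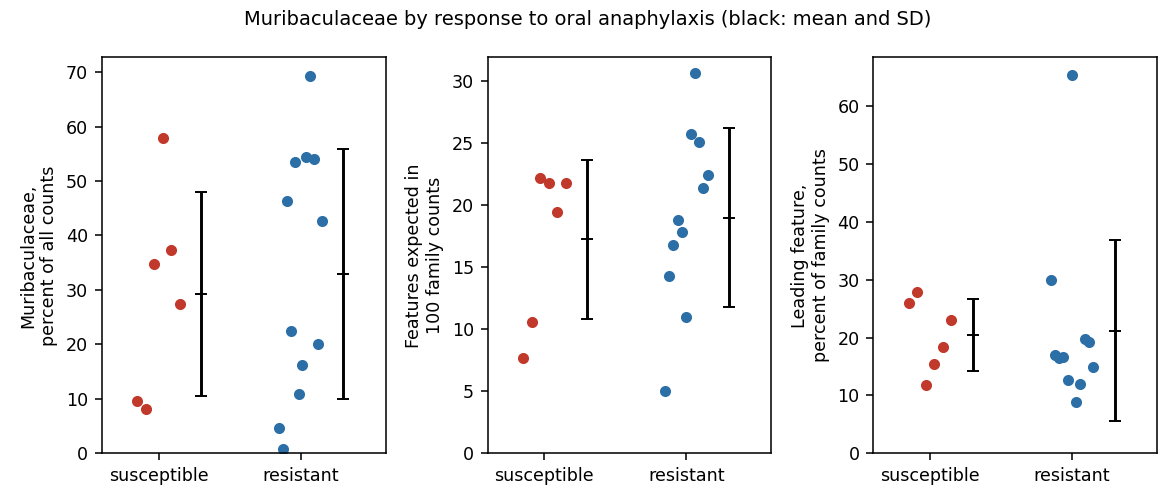
Family percent of counts, members expected in 100 family counts and leading member's percent of family counts, 1 point per mouse, with the group mean and SD. The groups overlap in all 3 panels.

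Average turnover between groups lay between the averages within them. Mean Jaccard dissimilarity was 0.789 over 15 pairs of susceptible mice, 0.825 over 66 pairs of resistant mice and 0.795 over 72 pairs between groups. The matching Bray-Curtis averages were 0.617, 0.648 and 0.626. Members found in both groups numbered 60 and held 93.1% of family counts. Of the 75 members found in at least 2 mice, 15 (20%) were found in resistant mice alone and 0 in susceptible mice alone. Of the 175 features of all families found in at least 2 mice, 30 (17.1%) and 10 (5.71%) were, with 12 against 6 mice to be found in. Members found in a single mouse numbered 2.83 per susceptible and 5.92 per resistant mouse, beside 12.7 and 14 over all features. None of these counts was tested between the groups.

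No member passed edgeR's quasi-likelihood test between groups. Of 163 members, 34 had at least 10 counts in total, were found in at least 4 mice and entered the test, and 129 did not. Of 83 features of all families tested, 0 were called (0%), and 1 had an unadjusted p under 0.05. Among the 34 members 0 were called and 0 had such a p, and DESeq2's Wald test and limma also called 0. With no filter on low counts, edgeR called 6 of 163 members (3.68%) and 64 of 419 features (15.3%), and each of the 6 members was found in 1 mouse. The members' median log2 fold change, susceptible over resistant, was -0.23 with 13 above and 21 below 0, beside -0.24 over all 83 features with 36 above 0. With DESeq2's size factors these medians were -0.52 and -0.43, so the scaling alone moved them. Summed over the family, the log2 fold change was 0.21 ± 0.68 (SE), with an adjusted p of 0.866, and 0 of 16 families were called (0%), with 3 at an unadjusted p under 0.05. The median over the 16 families was 1.43 on this scale and -0.06 with DESeq2's size factors, where Muribaculaceae stood at -0.78, so the direction of the family's change depended on the scaling.

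The 5 members with the smallest p were all fitted as lower in susceptible mice, and none passed the threshold. For F-bfad3d the log2 fold change was -2.53 ± 1.59 (SE), and it was found in 3 resistant mice and 1 susceptible mouse, at 1 to 8 counts. F-df20a7 had -2.95 ± 2.12, with 31 and 24 counts in resistant mice 6 and 12 and 9 or fewer in 4 other mice. The remaining 3, F-38b028 (-1.65 ± 1.33), F-b31949 (-1.43 ± 1.46) and F-11593b (-1.25 ± 1.33), never exceeded 6 counts. Each of the 5 had an adjusted p of 0.964 in edgeR's test.

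Presence differed most for F-ab7f13, the patchy member that led 5 mice. It was found in susceptible mice 3, 4, 5 and 6 at 4.11%, 8.97%, 6.87% and 6.35% of counts, in resistant mouse 7 at 10.6%, and at 0 counts in the other 13 mice, where a count of 0 allows at most 0.446%. Carriers and other mice were thus far apart, with no mouse in between. In Fisher's exact test 4 of 6 susceptible against 1 of 12 resistant mice gave p = 0.0217, and 0.608 after adjustment over 84 features, of which 0 were called (0%). Among those features 3 had an unadjusted p under 0.05, and F-ab7f13 was the only one of 38 members to do so. In edgeR's test its log2 fold change was 1.69 ± 1.81 (SE), adjusted p = 0.964. Without resistant mouse 7, the only resistant carrier, the member met the filter of 4 mice through susceptible mice alone. That fit, against a group at 0 counts, is therefore no support for a difference. With the title number as a covariate the log2 fold change of F-ab7f13 was -0.28. It was 2.20 with DESeq2's size factors, 2.30 with library totals, 2.21 with DESeq2's Wald test and 4.52 with limma. None of these passed the threshold after adjustment.

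The carriers of F-ab7f13 have the title numbers 41 to 48. The range was set by the carriers themselves after seeing the data, so counts within it are no test. In it all 4 susceptible mice and 1 of 4 resistant mice carried F-ab7f13, whereas the susceptible mice numbered 33 and 38 did not. The other members with the smallest presence p were far from the threshold. F-535176 and F-87ab2d were found in 4 of 12 resistant and 0 of 6 susceptible mice (Fisher's exact p = 0.245 each), at 1 count in each carrier. The carriers of F-ed8ae7 were 3 of 6 susceptible mice and 2 of 12 resistant ones (Fisher's exact p = 0.268). F-25fe69, F-6e42d5 and F-d1862f were found in 3 of 6 and 3 of 12 (Fisher's exact p = 0.344 each).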

How the data were processed

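Per the labels' protocols, DNA from stool pellets was amplified over the V1 to V3 region of the 16S rRNA gene and sequenced in paired reads on a MiSeq. The authors deposited whole-number counts per feature and mouse, not normalized, and a taxonomy of the features. Trimming, denoising, classifier and database are not given in the sources used here, and they bear on low-count features and names. Groups came from the labels, and mice were numbered within a group in accession order. No 2 libraries of a group agreed within counting noise (chi-square tests over 81 pairs).

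Percentages are of each library's total, which was 673 to 3905 counts. No molecular identifiers are described, so floors cover counting error only. Richness used the hypergeometric formula. Counts of all features with 10 or more counts in total and present in at least 4 mice were tested with edgeR 4.0.16 (TMM scaling, limma 3.58.1, R 4.3.3), adjusted by Benjamini-Hochberg at 0.05. The script was checked on simulated data with 1 fixed, small spread and no patchy absence. That check does not show what differences could be detected at the spread of these mice. Presence in 4 to 14 mice was tested with Fisher's exact test. Permutation tests covered all 18564 or 12376 assignments (smallest p 5.39e-05 and 8.08e-05) or used 100000 permutations, in Python 3.11.15 with scipy 1.17.1. Intervals invert the permutation test.

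Members named are the 10 most abundant, the 10 in most mice, each mouse's leader, the 5 with the smallest p in each test, features with another genus name, and the 5 pairs with the highest and lowest phi; since 9 pairs tied at the highest, all 9 are described. The members and lists were chosen with earlier results of these data known. Alternatives were DESeq2 1.42.0, limma on centred log-ratios, other scalings, filters and depths, the title number as a covariate and leaving out each mouse. Leaving out features that never exceeded 3 counts, and mice numbered under 39, were chosen after seeing the data.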

Additional observations from a re-analysis of the deposited data

Results flagged for a closer look

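Among the 6 susceptible mice, F-5bb594, found in 14 mice in all, stood apart in susceptible mouse 4. There it made up 3.07% of counts, against 0.871% in the next susceptible mouse. Its gap to the nearest mouse was 0.717 of the range of the 6 susceptible mice. It was the only one of 13 quantities examined in the 6 susceptible mice to be singled out in this way, and chance singles out about 1 group in 20. The resistant mice were too many for this screen and were not examined, although F-ab7f13 there was at 10.6% in mouse 7 and at 0 counts in the other 11. Resistant mice 9 and 10 had higher values of F-5bb594 than susceptible mouse 4, at 4.05% and 4.11% of counts. Susceptible mouse 4 had the highest family share of the susceptible mice, 57.9%. As a percent of family counts, F-5bb594 was at 5.31% there, below the 8.11% in susceptible mouse 2.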

How the results depend on the processing

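No group difference in share, richness or dominance passed the threshold under any alternative run, and the directions of all 3 were unstable. The share difference was -3.70 percentage points without the log scale, and -0.253 to 0.467 (log2) when each mouse was left out, changing sign without resistant mouse 1 or 2 or susceptible mouse 4. Across the 6 other settings the richness difference ran from -4.85 (200 family counts) to -0.462 (members in 2 or more mice), and from -3.15 to 0.156 when each mouse was left out, above 0 only without susceptible mouse 1. The dominance difference was 0.143 points for the 3 leading members, and -2.24 to 3.68 when each mouse was left out, above 0 without resistant mouse 1 or 7 or susceptible mouse 3 or 4. The family's log2 fold change was -0.78 with DESeq2's size factors and with its Wald test, -0.17 with library totals, -0.26 with limma on centred log-ratios and -0.39 with no filter. Leaving out each mouse gave -0.42 to 0.48, below 0 without susceptible mouse 4 or 5 or resistant mouse 8. With no filter edgeR called 6 members (3.68%), each found in 1 mouse, beside 15.3% of all features. Leaving out each mouse gave 0 to 1 called members. The 1 was F-ab7f13 without resistant mouse 7, when only susceptible carriers were left, so it is no support. Muribaculaceae as a family was called under no setting. The log2 fold change of F-ab7f13 turned to -0.28 with the title number as a covariate. Under 4 other scalings and methods it ran from 2.20 to 4.52, in no case past the threshold. Mean Jaccard dissimilarity moved to 0.737 in 100 family counts and 0.749 without members at or below 3 counts, and Bray-Curtis gave 0.635. Among 14 members found in 6 to 12 mice, 0 of 91 pairs were never found together, beside 3 of 231 pairs from other families. In this setting phi was at least 0.6 in 10.99% of member pairs and 6.06% of the others. These shares lay closer together than the 9.39% and 2.71% for features in 4 to 14 mice. Phi was above 0 in 71.4% of member pairs and 57.6% of the others. The relation of richness with the title number fell to an r of 0.422 (permutation p = 0.175) in mice numbered 39 or higher, and held under the other 5 alternatives and without any single mouse. The causes were not tested. No paired analysis between the groups was possible, because they are different mice and the labels used give no pairing. Depth limits absence: a count of 0 in the shallowest library allows 0.446%.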
